A study of Homo sapiens with 12 samples.

Results

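The amino acid and sugar solute carriers are membrane proteins that move amino acids, glucose and related solutes into and out of cells. Members were chosen by symbol as the protein-coding RefSeq genes of 8 subfamilies, SLC1, SLC2, SLC5, SLC6, SLC7, SLC36, SLC38 and SLC43. There were 84 of them among 19974 protein-coding genes of the 22 autosomes and X. Each was set against the lamina-associated domains (LADs) of H9 cells, an established human embryonic stem cell line, in the naive state (cells kept in RSeT medium) and in the primed state (mTeSR medium). LADs had been mapped by pA-DamID, in which an antibody to the lamina protein LMNB1 brings the bacterial enzyme Dam to nearby DNA, where it methylates the adenine of GATC sites. Each state had 3 LMNB1 libraries and 3 libraries with untethered Dam (Dam-only), and the labels name no further treatment. All libraries came from this single cell line, and whether the 3 libraries of a group were separate cultures is not stated in the labels.

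The data used here were 1 list of LAD intervals per state, built of 10 kb windows, with no score or read number. The measure is the share of a gene body that lies inside LADs, and a gene with 50% or more of its body covered was counted as in a LAD. With 1 list per state the replicate error is not known, and no difference between naive and primed could be tested. The depth behind a window is unknown, and a window with few GATC sites or few mappable reads cannot be told apart from a window away from the lamina.

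DNA at the nuclear lamina is mostly gene-poor, and its genes are mostly silent or weakly expressed. Solute carriers of these subfamilies include housekeeping carriers that growing cells use all the time and carriers made by only a few tissues such as brain, liver, kidney or gut. Pluripotent cells take up much glucose and glutamine, and they import cystine for glutathione synthesis.

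Most of the solute carriers lay outside LADs in both states, as did most protein-coding genes, and more carriers were in naive than in primed LADs. In naive LADs there were 19 of the 84 members (22.6%, exact Clopper-Pearson 95% interval 14.2% to 33.0%), beside 18.9% of all protein-coding genes. In primed LADs there were 13 (15.5%, 8.51% to 25%), beside 17.3% of all protein-coding genes. Each interval takes the genes as independent, covers neither replicate error nor the clustering of genes, and holds the share of all genes. LADs of both states held 12 members (14.3%, all genes 15.4%). The genes SLC1A2, SLC1A3, SLC2A2, SLC2A12, SLC7A14, SLC36A4 and SLC38A4 were in naive LADs only. These 7 made up 8.33% of the members (interval 3.42% to 16.4%), beside 3.44% of all protein-coding genes, which is just inside that interval. In primed LADs only there was 1 member, SLC7A11, or 1.19% beside 1.89% of all genes. The remaining 64 (76.2%, all genes 79.3%) were in LADs of neither state. Of these, 61 had no base in a LAD of either state, or 72.6% of the members beside 74.4% of all genes.

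The members were also set beside the 295 other SLC genes, from subfamilies outside the 8. Of these, 62 (21.0%) were in naive and 56 (19.0%) in primed LADs, with 9 (3.05%) in naive only and 3 (1.02%) in primed only. The members had a median length of 41.8 kb, longer than all protein-coding genes at 24.2 kb, and long genes lay in LADs more often, with 40.3% (naive) and 35.2% (primed) of all genes of 100 kb or more. Of members between 30 and 100 kb, 5 of 49 (10.2%, interval 3.40% to 22.2%) were in naive LADs only. The share of all genes of that length, 3.38%, is just below this interval. The 5 include SLC36A4, whose naive coverage of 52.0% is barely enough to count as in a LAD. They also include SLC2A2, whose length of 30.4 kb is just above the 30 kb cut. The interval without either gene was not computed, so the narrow margin carries no weight. Of members of 100 kb or more, 2 of 8 (interval 3.19% to 65.1%) were in naive LADs only. That interval holds the 7.04% of all such genes. Both intervals have the limits given above, and no difference was tested. None of the 27 members under 30 kb lay in LADs of 1 state only, beside 2.39% (naive only) and 1.94% (primed only) of all such genes.

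**Figure D1:**
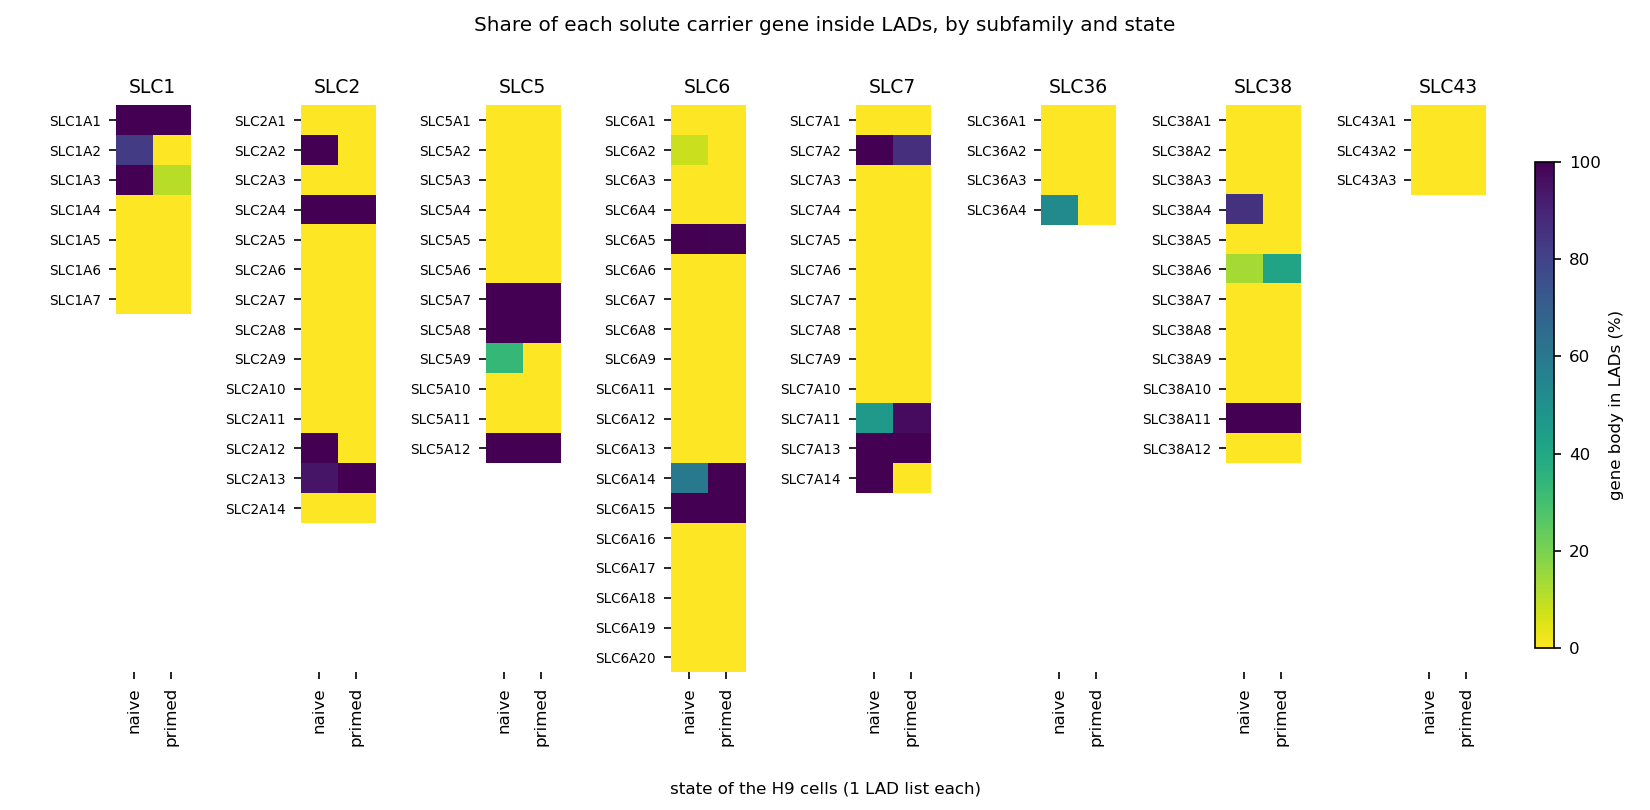
Panels are subfamilies, each row is 1 of the 84 solute carriers and each column a state, naive left of primed; colour gives the share of the gene body inside LADs in percent. Dark cells on the left with light cells on the right mark the members in naive LADs only, such as SLC2A2 and SLC7A14, and the 3 SLC43 members are at 0% in both.

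The promoters of 4 members in naive LADs only are shown because they hold few CpG sites, beside SLC36A4, a member in naive LADs only whose promoter is rich in them, and SLC2A1, a housekeeping member far from any LAD. Each sequence is the RefSeq promoter window of GRCh38.p14, from 250 bases before to 50 bases after the outermost annotated start, written 5′ to 3′ on the gene's strand with each CpG (CG, which reads the same on both strands) in capitals. The windows are SLC1A3 (chr5:36596338-36596637, plus strand), SLC2A2 (chr3:171026671-171026970, minus strand), SLC2A12 (chr6:134052575-134052874, minus strand), SLC7A14 (chr3:170586026-170586325, minus strand), SLC36A4 (chr11:93197942-93198241, minus strand) and SLC2A1 (chr1:42958819-42959118, minus strand).
SLC1A3: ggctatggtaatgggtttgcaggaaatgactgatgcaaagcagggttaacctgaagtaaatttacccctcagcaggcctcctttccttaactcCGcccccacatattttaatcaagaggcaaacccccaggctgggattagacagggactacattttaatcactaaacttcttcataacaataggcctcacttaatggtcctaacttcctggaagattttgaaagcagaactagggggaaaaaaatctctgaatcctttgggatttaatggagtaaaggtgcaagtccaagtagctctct
SLC2A2: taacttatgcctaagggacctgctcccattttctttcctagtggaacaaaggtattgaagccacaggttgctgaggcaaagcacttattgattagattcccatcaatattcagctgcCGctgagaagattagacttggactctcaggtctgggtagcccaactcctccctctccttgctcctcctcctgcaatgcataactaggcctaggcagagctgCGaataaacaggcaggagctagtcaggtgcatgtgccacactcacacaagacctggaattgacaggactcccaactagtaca
SLC2A12: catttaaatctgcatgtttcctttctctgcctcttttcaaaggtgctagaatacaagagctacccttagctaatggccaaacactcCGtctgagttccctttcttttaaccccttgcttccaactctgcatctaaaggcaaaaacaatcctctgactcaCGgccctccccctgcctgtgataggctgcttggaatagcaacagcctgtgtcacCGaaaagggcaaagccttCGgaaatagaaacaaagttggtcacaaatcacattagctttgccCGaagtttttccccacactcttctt
SLC7A14: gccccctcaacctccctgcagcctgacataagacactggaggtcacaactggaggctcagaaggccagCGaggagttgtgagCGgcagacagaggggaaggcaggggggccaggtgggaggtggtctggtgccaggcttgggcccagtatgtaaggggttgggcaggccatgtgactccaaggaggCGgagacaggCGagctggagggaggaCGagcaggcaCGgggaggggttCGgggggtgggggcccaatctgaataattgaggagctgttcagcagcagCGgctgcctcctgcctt
SLC36A4: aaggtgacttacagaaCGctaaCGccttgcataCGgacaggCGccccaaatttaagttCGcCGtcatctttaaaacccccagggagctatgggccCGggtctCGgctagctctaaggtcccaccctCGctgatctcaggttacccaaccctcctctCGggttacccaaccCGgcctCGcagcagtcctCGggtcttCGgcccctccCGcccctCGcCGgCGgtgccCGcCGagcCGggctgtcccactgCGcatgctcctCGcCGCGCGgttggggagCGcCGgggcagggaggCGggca
SLC2A1: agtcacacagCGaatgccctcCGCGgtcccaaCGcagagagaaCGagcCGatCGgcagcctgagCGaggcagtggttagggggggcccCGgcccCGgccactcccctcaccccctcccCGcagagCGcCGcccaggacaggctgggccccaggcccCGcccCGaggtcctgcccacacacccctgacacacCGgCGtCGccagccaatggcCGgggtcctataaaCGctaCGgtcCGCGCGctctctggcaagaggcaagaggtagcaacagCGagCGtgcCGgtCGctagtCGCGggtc

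The SLC1A3 window held 1 CpG at 43% GC, SLC2A2 held 2 at 49.0%, SLC2A12 held 5 at 45.7% and SLC7A14 held 8 at 64.3%. SLC38A4, not printed, held 16, SLC36A4 29 and SLC2A1 30. Of the 6 members in naive LADs only that had a promoter entry, 4 thus had at most 8 CpG sites, a limit set after the counts were seen. The same held for 2 of the 8 members in LADs of both states and for 14 of the 51 in neither (27.5%). Among all 15808 protein-coding genes with an entry the share was 25.4%, and among the 553 of them in naive LADs only it was 34.5%. It was 41.1% among all genes in LADs of both states and 21.6% among those in neither, so over all genes the share was lower in naive only than in both, the other way from the few members. Nearly every window held a CpG, 65 of 65 in members and 98.1% in all genes. The Dam target GATC, a palindrome, occurred in 30 of the 65 member windows (46.2%), beside 39.7% of all windows. Among the printed sequences GATC occurs in SLC36A4 and SLC2A1 only, with 1 match in each.

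**Figure D2:**
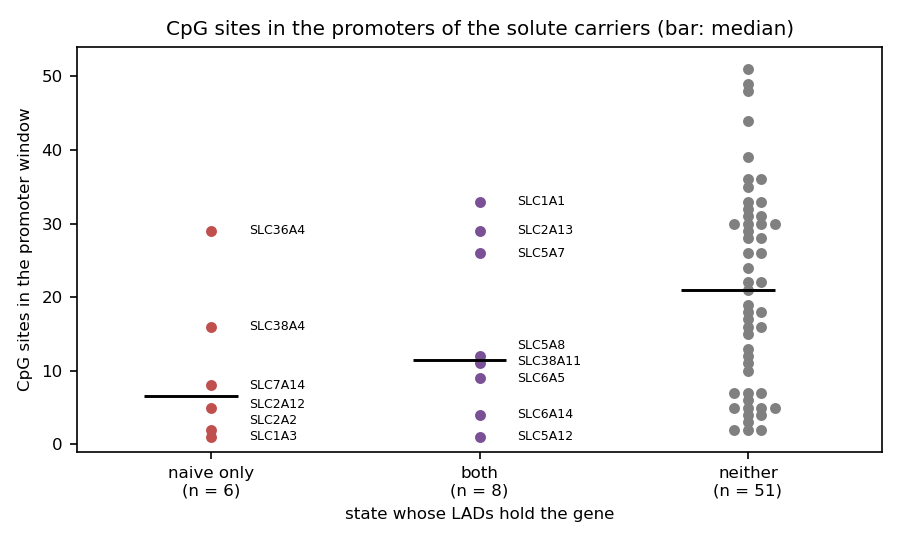
The y axis gives the number of CpG sites in the 65 available promoter windows of solute carriers, with 1 point per gene and a bar at the median, grouped by the state whose LADs hold the gene. The medians are 6.5 in naive only, 11.5 in both and 21 in neither, and the ranges of the 3 groups overlap; over all protein-coding genes the medians are 19, 14 and 23.

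The subfamilies differed in how many members lay in LADs, although each has few members and no difference between them was tested. SLC1 had 3 of 7 members in naive and 1 in primed LADs, SLC2 had 4 and 2 of 14, SLC36 had 1 and 0 of 4, and SLC38 had 2 and 1 of 12. SLC5 had 3 of 12, SLC6 3 of 19 and SLC7 3 of 13 in each state, and SLC43 had none of 3. In SLC5 and SLC6 the same genes were counted in both states. In SLC7 the equal counts hid an exchange, with SLC7A14 in naive LADs only and SLC7A11 in primed LADs only. The subfamilies with more members in naive than in primed LADs were thus the 4 SLC1, SLC2, SLC36 and SLC38. The interval of every subfamily's share was wide, for example 9.90% to 81.6% for SLC1 in naive LADs.

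**Figure D3:**
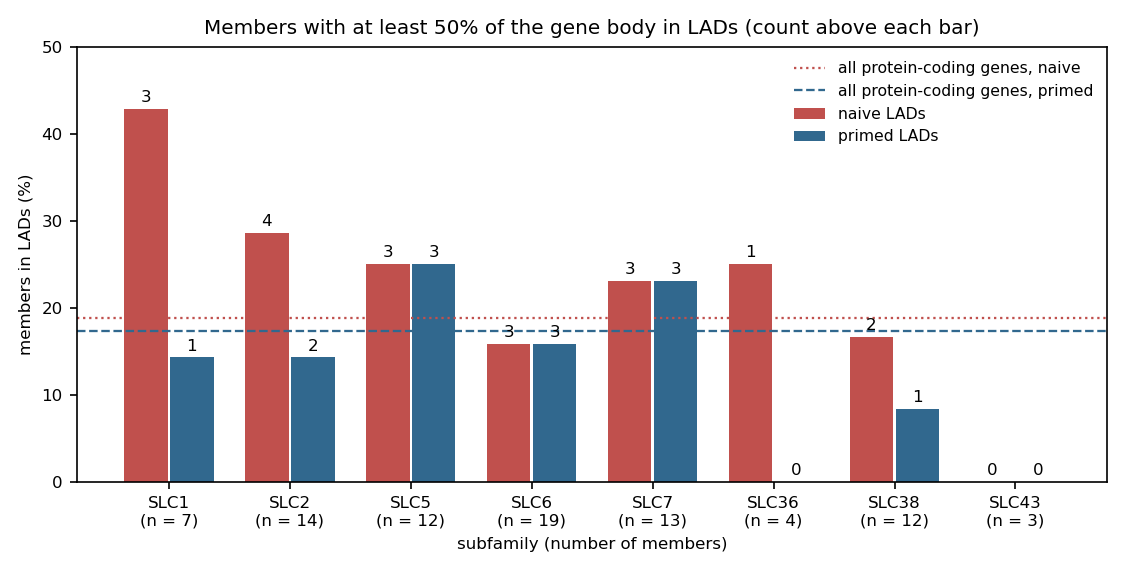
Bars give the percent of each subfamily's members in naive (left bar) and primed (right bar) LADs, with the count above each bar; the lines mark all protein-coding genes, 18.9% in naive and 17.3% in primed. SLC1 and SLC2 stand at 42.9% and 28.6% in naive and at 14.3% each in primed.

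SLC1 encodes sodium-coupled carriers of glutamate, which clear this transmitter from synapses, and of small neutral amino acids. Of its 5 glutamate carriers, naive LADs held 3 (exact 95% interval 14.7% to 94.7%) and primed LADs 1 (0.505% to 71.6%). These intervals hold the share of all genes, 18.9% in naive and 17.3% in primed. SLC1A3, the glial carrier GLAST (chromosome 5, 36596588 to 36688334), had 100% of its body in naive LADs and 10.9% in primed LADs. All 10 windows that the gene touches were in 1 naive LAD of 530 kb, whereas only 1 of them was in a primed LAD. SLC1A2, the main glutamate carrier of astrocytes (chromosome 11, 35251205 to 35420507), had 82.3% of its body in naive LADs and 0% in primed LADs. The nearest primed LAD was 61.2 kb away. SLC1A1, the neuronal and kidney carrier (chromosome 9, 4490468 to 4587469), was covered at 100% in both states, by a naive LAD of 1150 kb and a primed LAD of 1820 kb. The carriers of Purkinje cells and retina, SLC1A6 and SLC1A7, and the neutral amino acid exchangers SLC1A4 and SLC1A5 were at 0% in both. SLC1A5, which takes up glutamine in dividing cells, lay 8861 kb from the nearest naive and 7191 kb from the nearest primed LAD.

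SLC2 encodes the facilitative carriers of glucose, fructose, urate and inositol. SLC2A1 and SLC2A3, glucose carriers much used by pluripotent cells, were at 0% in both states, 5221 kb (naive) and 5181 kb (primed) from a LAD for SLC2A1 and 1564 kb and 1574 kb for SLC2A3. SLC2A3 has a close copy, SLC2A14, next to it, also at 0% in both, and the sources used here do not give how reads that fit both copies were handled. SLC2A2, the glucose carrier of liver and pancreatic beta cells (chromosome 3, 170996347 to 171026720), had 100% of its body in naive LADs and 0% in primed LADs. It sat in a naive LAD of 1070 kb, and the nearest primed LAD was 293 kb away. SLC2A12, a carrier of class III (chromosome 6, 133987581 to 134052624), was likewise at 100% and 0%. Its naive LAD was 110 kb long, and the nearest primed LAD was 17.6 kb from the gene. None of the 4 class II carriers, of which SLC2A5 is the fructose carrier of the gut and SLC2A9 a urate carrier, was in a LAD. The exact interval for these 4 reached 60.2% in each state and so holds the share of all genes.

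The remaining covered SLC2 members were in LADs of both states and differed from each other in their surroundings. SLC2A13, a proton-coupled inositol carrier of the brain (chromosome 12, 39755025 to 40106081), spans 351 kb and was covered at 94.3% in naive, by 3 LADs, and at 100% in primed, by 1 LAD of 1200 kb. SLC2A4, the insulin-responsive glucose carrier of muscle and fat (chromosome 17, 7281718 to 7288257), was covered at 100% in both. Its 6.54 kb body lay in a single 10 kb window, 7280001 to 7290000, which was a LAD of its own in each list. Of the gene and 500 kb to each side, 0.994% was in LADs of either state, and 55 other protein-coding genes lay in that span. On chromosome 17 as a whole, naive LADs held 1.80% and primed LADs 1.71% of protein-coding genes. Without LADs under 50 kb SLC2A4 was in a LAD of neither state.

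SLC5 encodes sodium-coupled carriers, of sugars and inositol in 7 members and of other solutes in 5. None of the 7 sugar and inositol carriers lay in a LAD, among them the intestinal and renal glucose carriers SLC5A1 and SLC5A2. The exact interval for these 7 reached 41.0% in each state and so holds the share of all genes. SLC5A9, a mannose and fructose carrier (chromosome 1), came nearest, at 33.3% in naive and 0% in primed. It was in naive LADs only under 5 of the 8 other settings on gene bodies, those that required 25% of the body or any overlap and those that joined LADs, and SLC5 then had 1 more member in naive than in primed LADs. Of the other 5 members, the same 3 were covered at 100% in both states. The exact 95% interval for 3 of 5, 14.7% to 94.7% in each state, also holds the share of all genes. SLC5A7 supplies choline to cholinergic neurons, and SLC5A8 and SLC5A12 carry lactate and other monocarboxylates. SLC5A7 (chromosome 2, 107986524 to 108013994) lay in a naive LAD of 180 kb and a primed LAD of 300 kb, and SLC5A8 (chromosome 12, 101155493 to 101210238) in LADs of 1100 kb (naive) and 1050 kb (primed). SLC5A12 (chromosome 11, 26667020 to 26723389) lay in a naive LAD of 2610 kb. The iodide carrier SLC5A5 and the vitamin carrier SLC5A6 were at 0% in both.

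SLC6 encodes sodium- and chloride-coupled carriers of transmitters and amino acids. None of the 3 monoamine carriers and none of the 6 carriers of GABA, taurine, betaine or creatine was in a LAD. In each state the exact interval reached 70.8% for the 3 and 45.9% for the 6. Both intervals hold the share of all genes, 18.9% in naive and 17.3% in primed. Only the noradrenaline carrier SLC6A2 among these 9 had any covered bases, 7.99% in naive and 0% in primed. The 3 members in LADs of both states carry amino acids. SLC6A5, the glycine carrier of inhibitory neurons (chromosome 11, 20599608 to 20659285), had 100% of its body in naive LADs and 99.3% in primed LADs. Its start fell 0.392 kb outside the primed LAD. SLC6A15, a carrier of branched-chain amino acids and proline in the brain (chromosome 12, 84859491 to 84912799), was at 100% in both, in a naive LAD of 290 kb and a primed LAD of 5440 kb. SLC6A14, a broad amino acid carrier of epithelia (X, 116436606 to 116461458), was at 59.8% in naive, by 2 LADs with a gap inside the gene, and at 100% in primed. The other glycine carrier, SLC6A9, was at 0% in both.

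SLC7 encodes cationic amino acid carriers and the light chains of heteromeric carriers, which pair with SLC3A1 or SLC3A2. SLC7A11, the light chain of the cystine and glutamate exchanger (chromosome 4, 138164097 to 138242349), had 45.9% of its body in naive LADs and 97.0% in primed LADs. In naive, a LAD of 330 kb ended inside the gene at 138200000 and the next began beyond it at 138260001. In primed, a LAD of 2100 kb ran to 138240000 and the next began at 138250001. Of the 9 windows the gene touches, 4 were in naive and 8 in primed LADs, so a gap of 60 kb in naive stood against one of 10 kb in primed. No other protein-coding gene lay within 500 kb of SLC7A11, and 93.5% (naive) and 98.1% (primed) of that span was in LADs. SLC7A11 was just below the 50% line in naive. With 25% of the body required, or LADs less than 100 kb apart joined, it was in LADs of both states.

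Among the other SLC7 members, SLC7A14, a lysosomal protein of neurons and retina related to the cationic carriers (chromosome 3, 170459548 to 170586075), had 100% of its body in naive LADs and 0% in primed LADs. Its naive LAD was 370 kb long, and the nearest primed LAD was 559.5 kb away. SLC7A2, an arginine carrier (chromosome 8, 17494069 to 17570566), was at 100% in naive and 86.2% in primed, and the kidney light chain SLC7A13 (chromosome 8, 86214063 to 86230381) at 100% in both. The light chain SLC7A5, a large neutral amino acid carrier of growing cells, was at 0% in both, 4080 kb from a naive and 4500 kb from a primed LAD. The remaining 8 SLC7 members were at 0% in both, as were SLC3A1 and SLC3A2.

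Most, but not all, members of SLC36, SLC38 and SLC43 are classed as proton-coupled, sodium-coupled and facilitative amino acid carriers, respectively. SLC36A4, a carrier of proline and tryptophan (chromosome 11, 93144174 to 93197991), was covered at 52.0% in naive, by LADs of 20 and 30 kb, and at 0% in primed, with a primed LAD 14.2 kb away. It was just above the 50% line and lost its place without LADs under 50 kb. The other SLC36 genes, SLC36A1, SLC36A2 and SLC36A3, form a cluster on chromosome 5 and were at 0% in both. SLC38A4 (chromosome 12, 46764761 to 46832431), a carrier of liver and placenta, was at 85.2% in naive, by LADs of 50 and 70 kb, and at 0% in primed. SLC38A6 (chromosome 14, 60981245 to 61083733) was below the line in both states, at 13.4% in naive and 41.5% in primed, and its start lay in a primed but not in a naive LAD. It too changed under 5 of the 8 settings, to primed LADs only or to both. SLC38A11 (chromosome 2, 164894354 to 164955525) was at 100% in both, in a naive LAD of 990 kb and a primed LAD of 5850 kb. All 3 SLC43 members were at 0% in both.

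The spans around the members in naive LADs only are described here without a test. Each span includes the gene body by which the member was chosen. Many LADs here also ran on beyond the gene, so more naive coverage of the span follows in part from that choice. The same limit applies to the neighbouring genes, which can lie in the same LADs. Of each gene and 500 kb to each side, between 52.1% and 92.2% was in naive LADs (median 85.0%), against 0% to 58.7% (median 1.87%) in primed LADs. For SLC1A2, SLC2A2, SLC7A14 and SLC38A4 the primed share was at most 1.87%, whereas SLC2A12 (58.7%), SLC1A3 (45.0%) and SLC36A4 (34.7%) had primed LADs nearby. Within 500 kb of these members some of the other protein-coding genes were in naive LADs only as well, and none was in primed LADs only. Over all protein-coding genes the shares were 3.44% (naive only) and 1.89% (primed only). With so low a primed-only share, its absence among so few neighbours carries no weight. The naive-only neighbours were 4 of 6 at SLC1A2, 3 of 6 at SLC1A3, 3 of 5 at SLC2A12, 2 of 4 at SLC2A2, 2 of 6 at SLC36A4, 2 of 10 at SLC7A14 and 1 of 4 at SLC38A4. By name they were CD44, PAMR1, FJX1 and TRIM44 at SLC1A2, SKP2, NADK2 and CPLANE1 at SLC1A3, TCF21, TBPL1 and SGK1 at SLC2A12, DEUP1 and SMCO4 at SLC36A4, and PCED1B at SLC38A4, with SLC2A2, SLC7A14 and TNIK near each other. The members in LADs of both states had a median of 88.2% in naive and 93.6% in primed of this span covered. For SLC6A14 the shares were 67.5% and 94.8%.

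**Figure D4:**
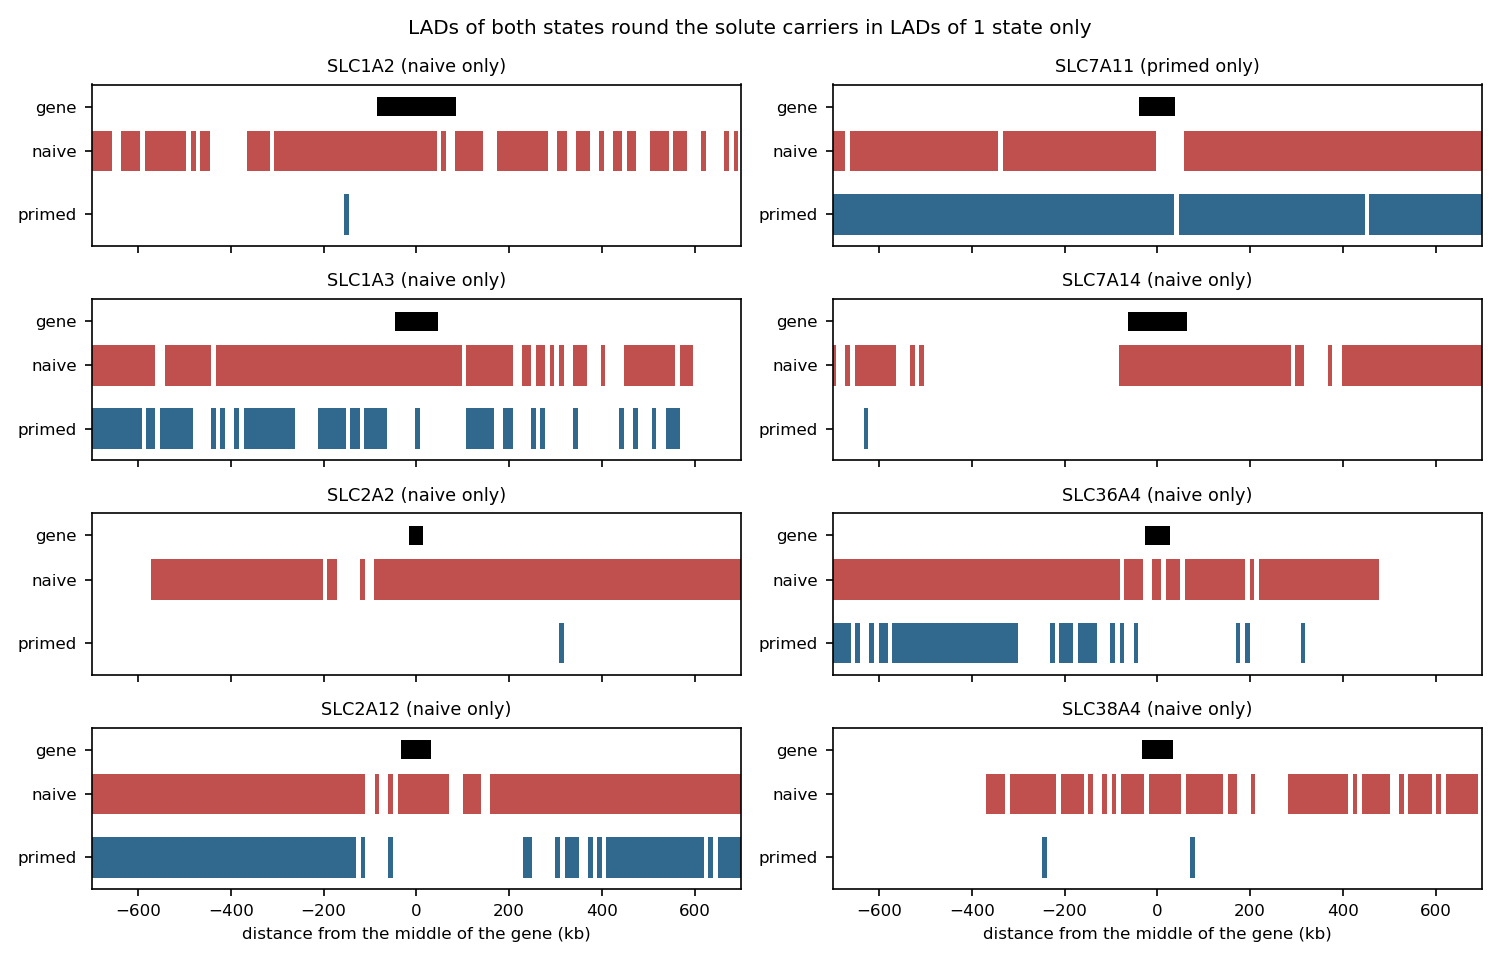
Each panel shows, over 700 kb to each side of the gene's middle, the gene (black), naive LADs (red) and primed LADs (blue); the x axis is the distance in kb. Around SLC2A2, SLC7A14, SLC1A2 and SLC38A4 the primed row is almost empty, while SLC7A11 sits at a gap of 60 kb in naive and of 10 kb in primed.

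**Figure D5:**
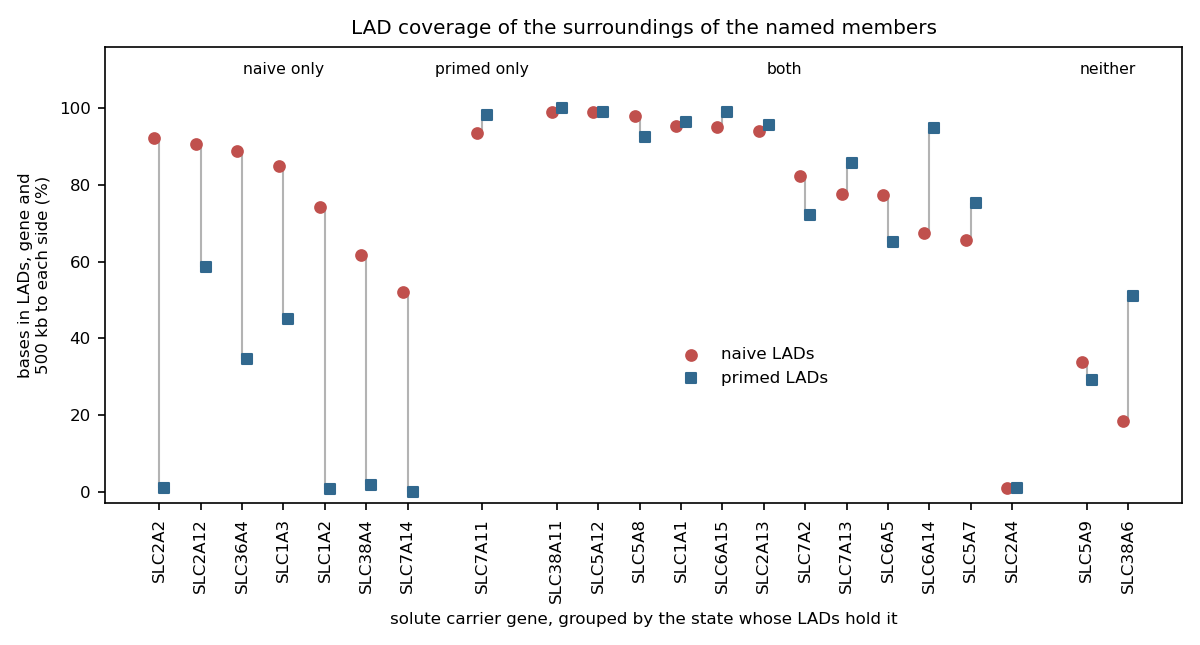
Points give the percent of bases in LADs over the gene and 500 kb to each side, naive (circles) left of primed (squares), for the members in a LAD or with a difference of at least 25 points. The naive-only members lie at 52.1% or more in naive and at 58.7% or less in primed, and SLC2A4 is at 0.994% in both.

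Some members are neighbours and do not count as independent places. Members linked by starts within 500 kb (the lower coordinate where no start was known) formed 12 clusters with 27 genes, and 2 of these clusters had a member in a LAD. In the first, SLC2A2 and SLC7A14 on chromosome 3, together with TNIK, were all in naive LADs only. Their naive-only stretches of 400 kb (170920001 to 171320000) and 370 kb (170440001 to 170810000) were not continuous with each other. In the second, the glutamine carriers SLC38A1 and SLC38A2 were at 0% in both states next to SLC38A4. SLC38A2 lay 57.2 kb from the nearest naive and 177 kb from the nearest primed LAD, and SLC38A1 161 kb and 281 kb. Counted as loci, 18 were in naive and 13 in primed LADs, 6 in naive only and 1 in primed only.

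The members in LADs of both states were mostly covered in full, and for most of them the longest naive LAD over the gene was shorter than the longest primed LAD. Of the 12, 10 were covered at 100% in each state, but not the same 10. SLC2A13 and SLC6A14 fell short in naive, and SLC6A5 and SLC7A2 in primed. A LAD of 1 Mb or longer overlapped 4 of the 12 in naive and 7 in primed. The whole lists differ in the same way, with 9178 naive LADs of at most 5.52 Mb and 5671 primed LADs of at most 10.23 Mb. The share over all genes in LADs of both states was not computed, so whether the contrast is particular to these members was not tested. SLC6A5 and SLC5A12, on chromosome 11, shared a single primed LAD of 6610 kb (20600001 to 27210000), whereas in naive SLC6A5 lay in a LAD of 3510 kb and SLC5A12 in another of 2610 kb.

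For members outside LADs, the median distance from the gene body to the nearest LAD was 1564 kb for 65 members in naive and 1574 kb for 71 in primed, beside 1099 kb and 1318 kb for all genes outside LADs. At least 1000 kb separated 36 of these members in naive and 41 in primed from any LAD, beside 52.0% (naive) and 57.0% (primed) of all genes outside LADs. Nearest LADs include isolated 10 kb windows, so these distances hold only for lists that keep such windows.

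Lists of genes that work with these carriers were counted in the same way, and are to be read beside the 18.9% (naive) and 17.3% (primed) of all protein-coding genes. Among partner and accessory proteins, ARL6IP5, a regulator of SLC1A1, was in naive LADs only (100% in naive, 23.9% in primed). Of 20 amino acid, peptide and sugar carriers of other families, naive LADs held 4 and primed LADs 3. The vesicular glutamate carriers SLC17A6 and SLC17A8 were at 100% in both states and the mitochondrial SLC25A13 at 95.0% in naive and 90.1% in primed, whereas the peptide carrier SLC15A2 was at 79.9% in naive and 11.2% in primed. Of 33 genes of amino acid sensing upstream of mTORC1, 5 were in naive and 4 in primed LADs, with LAMTOR3, FNIP2 and SAMTOR in both. SESN3, of the leucine-sensing sestrins (66.4% in naive, 14.9% in primed), and KICS2, a subunit of KICSTOR (93.6% and 16.6%), were in naive LADs only, and FNIP1, a folliculin partner (32.2% and 77.3%), in primed LADs only. None of the 17 genes of hexose phosphorylation and use, hexokinases and phosphofructokinases included, was in a LAD of either state, which allows a share of up to 19.5% (exact 95% interval) and so holds the share of all genes.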

How the data were processed

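The deposited files hold the submitters' LAD intervals, 1 list per state (9178 naive and 5671 primed LADs), with chromosome, start and end only. In the values all ends are multiples of 10 kb. BWA, SAMtools 1.10, SICER and hg38 are named in the submitters' processing notes; the sources used here do not give step order, thresholds or how LMNB1 and Dam-only libraries were combined.

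Genes, lengths and promoter windows came from RefSeq tables of GRCh38.p14, a release of the hg38 build. Coordinates are 1-based. Gene body coverage, distances to the nearest LAD and coverage with 500 kb to each side were computed from the intervals. Starts and strands came from the promoter table, which matched 65 of the 84 members. The other 19 were placed by gene body only. The outermost start entered there was used. For some members, such as SLC5A4, SLC36A1 and SLC38A4, it lies inside the gene body and not at its end. Members, lists, role groups and the naming rule were chosen with earlier results of these data known. Named are members in a LAD or with a difference of at least 25 points, 7 carriers much used by pluripotent cells, clusters with a member in a LAD, and listed genes in LADs of 1 state. Other genes named were chosen after their values were seen. Of 82 listed genes all matched, MFSD4B through a synonym. The count over the partner and accessory proteins and 1 result in it are not reported here. Functions were tested on simulated data. Alternatives changed the covered share, the gaps, the short LADs, the start window and the counting of loci. Computation was in Python 3.11.15 with pandas 2.3.3 and numpy 2.4.6, intervals came from SciPy 1.17.1 and figures from matplotlib 3.10.9. The labels call the lists final and the files call them simple; what sets these apart is not stated there.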

Additional observations from a re-analysis of the deposited data

How the results depend on the processing

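The naive count stayed above the primed count under all 10 alternatives run. The whole lists go the same way, with 1438 Mb in naive and 1319 Mb in primed LADs. So do all protein-coding genes at the main setting, 18.9% against 17.3%. The alternatives were run on the members only, so all genes were not compared under them. Of the 7 members in naive LADs only, SLC2A2, SLC2A12 and SLC7A14 kept that place under all 8 settings on gene bodies. SLC1A2 lost it only with at least 90% of the body required, SLC1A3 with any overlap or LADs less than 100 kb apart joined. SLC38A4 lost it at 90% and without LADs under 100 kb, and SLC36A4 under both of these and without LADs under 50 kb. With at least 90% required, and likewise without LADs under 100 kb, the naive minus primed count was 3 in place of 6 and 2 members were in primed LADs only, SLC7A11 and SLC6A14. That number was 0 with any overlap and after joining LADs across gaps under 100 kb. It was 2, with SLC38A6, when gaps under 50 kb were closed first and LADs under 100 kb then left out. The number of subfamilies with more members in naive LADs, 4, was 7 with any overlap or with LADs less than 100 kb apart joined and 2 without LADs under 100 kb. By the window of the start, which only 65 members have, 14 were in naive and 8 in primed LADs, 7 in both. The gene bodies of the same 65 also gave 14 and 8, but the 8 were not all the same genes. By the start, SLC6A5 was in naive LADs only in place of both, and SLC38A6 in primed LADs only in place of neither. No paired analysis was possible because the lists do not keep the libraries apart, and the depth of a window is unknown.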
